A study of Mus musculus with 16 samples.

Results

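The cytosolic ribosomal protein genes were read across the 16 RNA-seq libraries of mIMCD3 cells, an epithelial line derived from the inner medullary collecting duct of the mouse kidney. Members were chosen by symbol alone, as symbols that begin with Rpl or Rps followed by a digit together with Rplp0, Rplp1, Rplp2 and Rpsa, leaving out pseudogene symbols that contain -ps, the Rps6k kinases and Rps19bp1. The rule gave 93 of the 55367 genes in the count files, 55 named Rpl for the large ribosomal subunit or its stalk and 38 named Rps for the small subunit, including Rpsa. Some pseudogenes without -ps in the symbol stayed in. Rpl6l, Rps3a2, Rps3a3, Rps12l1 and Rps4l are pseudogenes in both GENCODE and RefSeq, and Rpl32l and Rpl37rt in GENCODE only. Of these, 89 passed the filter on low counts that left 19509 genes for testing. The 4 that did not pass, Rpl10l, Rpl39l, Rps12l1 and Rps4l, had counts at or near 0.

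The genotype was wild type (WT) or Nrf2-/-, which lacks the transcription factor encoded by Nfe2l2 that drives antioxidant genes. Pretreatment lasted 5 h and used DMSO, the solvent, or 10 µM of the Nrf2 activator SFN (sulforaphane). RNA was then taken from isosmotic cells or after hyperosmotic stress (HS), with medium of 600 mOsm for 1 h; the osmolality of the 6 h samples was not given in the sources used here. The 8 groups held 2 libraries each and were WT DMSO and WT SFN, each isosmotic, at 1 h and at 6 h, and Nrf2-/- SFN, isosmotic and at 1 h. The Nrf2-/- line was made with lentiviral CRISPR/Cas9 vectors and antibiotic selection, which the WT line was not described as having undergone, whether it was a single clone was not stated, and no Nrf2-/- libraries with DMSO were analysed here. The study calls the 2 libraries of a group biological replicates. The sources used here do not say that they came from separate cultures, so p-values measured only the spread between these libraries.

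Each ribosome joins a small subunit, which reads the mRNA, to a large subunit, which links the amino acids, and each subunit is built in the nucleolus from ribosomal RNA and one copy of most ribosomal proteins. The mRNAs of these proteins are among the most abundant of growing cells. They begin with a run of pyrimidines, the terminal oligopyrimidine (TOP) tract, through which the kinase mTORC1 controls their translation.

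Start sites of selected members are shown first, because the TOP tract lies there and some members that moved apart from the rest could be compared by it. The selection leaves out members named below, such as Rplp2, Rps14, Rps27l and Rpl9. It holds others without a result of their own, such as Rps27 and Rps27rt. Sequences are from RefSeq, build GRCm38.p6, which had a promoter window for 68 of the 93 members, and each line runs 5′ to 3′ on the gene's own strand from 10 bases before to 20 bases after the annotated start. Capitals mark the letters CTTTCC, a fixed string of pyrimidines searched on the transcribed strand. The TOP tract is a run of pyrimidines and need not hold these letters, so a member without them can still have one. Among members with the match were these.
Rps10, chr17:27635225-27635254, minus strand: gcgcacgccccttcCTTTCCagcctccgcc
Rps27, chr3:90213629-90213658, minus strand: cgctttcgctcCTTTCCggcggtgacgacc
Rps27rt, chr9:114982720-114982749, minus strand: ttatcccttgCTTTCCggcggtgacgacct
Rpl15, chr14:18270967-18270996, minus strand: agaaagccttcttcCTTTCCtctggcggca
Rpl13a, chr7:45128726-45128755, minus strand: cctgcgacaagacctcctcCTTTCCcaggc
These members had no match in this window.
Rplp0, chr5:115559457-115559486, plus strand: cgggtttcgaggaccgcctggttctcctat
Rps4x, chrX:102189372-102189401, minus strand: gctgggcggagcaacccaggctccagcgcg
Rpl10, chrX:74270806-74270835, plus strand: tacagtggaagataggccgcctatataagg
Rpl39, chrX:37085203-37085232, minus strand: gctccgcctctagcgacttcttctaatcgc
Rpl3l, chr17:24727816-24727845, plus strand: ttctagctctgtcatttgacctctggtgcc
Rpl7l1, chr17:46782637-46782666, minus strand: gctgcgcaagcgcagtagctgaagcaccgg
Rpl22l1, chr3:28805498-28805527, plus strand: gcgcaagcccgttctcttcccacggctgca

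CTTTCC on the transcribed strand lay in these 30 bases in 11 of 68 members (16.2%), against 412 of all 27025 genes with a RefSeq window (1.52%). A gene was counted if any of its windows matched. Over the whole window, from 250 bases before to 50 after the start, 27 of 68 members (39.7%) and 4328 of all these genes (16%) held it. TGACNNNGC, the core of the antioxidant response element that Nrf2 binds, was found on either strand in 14 of 68 members (20.6%) and 3781 of all these genes (14%). TGGAAA, the core of the element bound by the osmotic stress factor NFAT5, was found on either strand in 8 members (11.8%) and 6472 of all these genes (23.9%). These matches describe letters only.

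The libraries held 34484296 to 50774875 counts each. Nfe2l2, the targeted gene, had 386 to 433 counts in the 4 Nrf2-/- libraries and 2496 to 5013 counts in the 12 WT libraries. Of 19 collecting duct markers, 9 to 12 in each group had at least 10 counts in both libraries. The epithelial keratins Krt8 and Krt18 were abundant in every library, whereas Aqp2, which defines principal cells of the collecting duct, had between 0 and 11 counts. The 15 markers of other cell types summed to 5.92 to 32.3 counts per 1e6 (CPM) in a library. Libraries of a group differed most in Nrf2-/- SFN at 1 h (biological coefficient of variation 0.348), then in WT SFN isosmotic (0.128) and WT DMSO isosmotic (0.111), and between 0.0393 and 0.0871 in the other 5 groups.

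The members took between 3.79% and 6.77% of all counts of a library. The 2 libraries held 5.62% and 6.51% in WT DMSO isosmotic cells, 5.52% and 5.47% at 1 h, and 5.93% and 6.24% at 6 h. With SFN, WT cells held 5.48% and 4.67% isosmotic, 5.4% and 5.46% at 1 h, and 5.44% and 5.85% at 6 h. With DMSO the 1 h libraries lay below the isosmotic ones, while the 6 h libraries lay between them. With SFN the 1 h and 6 h libraries overlapped with the isosmotic ones, and both isosmotic SFN libraries lay below both isosmotic DMSO libraries. In Nrf2-/- SFN cells the share was 4.58% and 4.61% isosmotic, and 6.77% and 3.79% at 1 h, which were the highest and the lowest of all 16 libraries. A share of counts does not separate fewer transcripts per cell from more of all other transcripts.

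**Figure D1:**
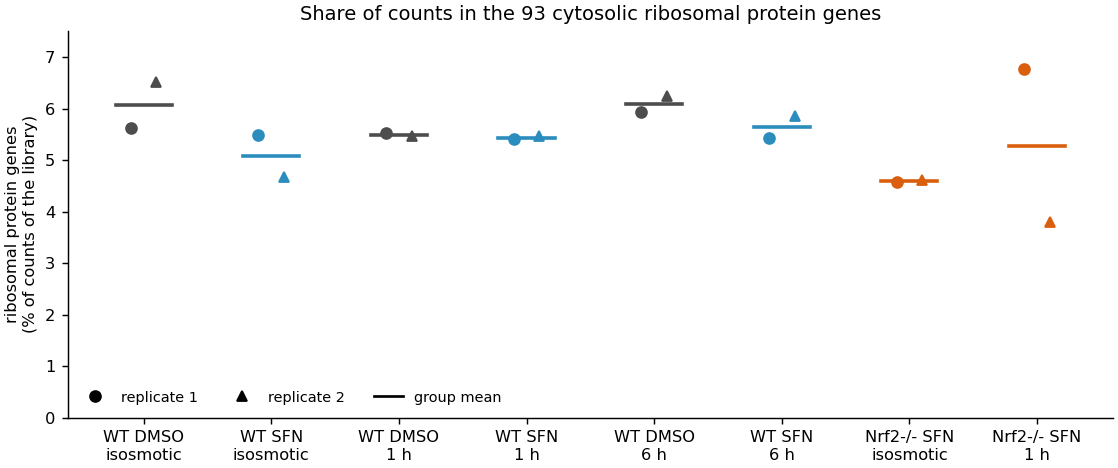
Share of all counts (percent, y axis) that the 93 members took in each of the 16 libraries, grouped by genotype, pretreatment and time; circles and triangles are replicates 1 and 2 and lines are group means. The 2 Nrf2-/- SFN 1 h libraries, at 6.77% and 3.79%, bracket every other library.

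Per kilobase of transcript, the most abundant members in WT DMSO isosmotic cells were Rpl41, the shortest ribosomal protein, at 3736 CPM per kilobase, Rpl8 at 2620.1 and Rps2 at 2482. The lowest with a mean of at least 50 counts were Rpl24 at 3.48, Rpl36al at 4.19 and Rpl32l at 4.21 CPM per kilobase. Such low values had a limit of their own, since most members have processed pseudogenes elsewhere in the genome. At least 1 copy that matched at least 95% of the bases over at least 80% of the coding sequence was found for 85 members, and for 30 of them more than 10% of the summed counts lay in the copies. For Rpl24 the copies held between 60.7% and 85.2% of the summed counts of a group, with its 2 libraries added, so its level is uncertain.

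After normalization for library composition (TMM), HS for 6 h was the condition in which ribosomal protein transcripts rose most widely. In WT DMSO cells at 6 h against 1 h, 59 of the 89 tested members rose and 2 fell, which was 66.3% and 2.25% of members against 25.7% and 27.2% of all tested genes. The 59 rose by a median of 1.30-fold, with a median standard error of 0.08 on the log2 scale. As a share of all counts the members averaged 5.49% at 1 h and 6.08% at 6 h. The TMM factors were 1.064 and 1.058 for the 1 h libraries and 0.911 and 0.909 for the 6 h libraries. Lower factors raise normalized levels, so the fold holds this scaling as well as the change in share. Both subunits took part, with 33 of 53 large and 26 of 36 small subunit members higher. Both 6 h libraries lay above both 1 h libraries for 84 members, as they did for 38.7% of all genes. The count stayed between 46 and 55 when any 1 of the 4 libraries was left out, but fell to 14 when all 16 libraries, including the widely spread Nrf2-/- pair, shared one estimate of the spread.

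Against isosmotic cells the rise in WT DMSO cells was smaller. At 6 h, 32 members rose and 1 fell (36.0% and 1.12% of members), against 29.8% of all genes called higher and 26.3% called lower. The share that rose was therefore near that of all genes, and the share that fell was far below it. The median log2 difference was 0.20 over members and 0.07 over all genes tested, many of them of lower counts than the members. Over genes of at least 5 CPM, the medians of the 19 autosomes lay between -0.20 and -0.06. As a share of all counts the members averaged 6.07% isosmotic and 6.08% at 6 h, so the rise was in normalized levels only. The TMM factors were 1.04 and 1.03 for the isosmotic libraries and 0.911 and 0.909 for the 6 h libraries. The 32 rose by a median of 1.20-fold, between 1.12-fold and 1.73-fold. The calls numbered 12 without WT DMSO isosmotic replicate 1, 18 without WT DMSO 6 h replicate 2, and 1 with all 16 libraries in the fit. With the trend over transcript length removed they numbered 60. The collecting duct markers summed to 3809 to 4118 CPM in the 6 h libraries and 2315 to 3346 CPM in the other WT libraries. Among them Pax2 had 32301 to 39220 counts at 6 h against 4993 to 7874, whereas Krt8 had 24718 to 27669 against 31168 to 50152. The markers of other cell types summed to 27.3 to 32.3 CPM against 11.6 to 17.7 CPM. The part of either marker list in the member results was not tested.

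In SFN-pretreated WT cells, 64 members rose and 1 fell at 6 h against isosmotic cells (71.9% and 1.12%), where 31.8% of all genes were called higher and 26.1% lower. The median log2 difference was 0.47 over members and 0.12 over all genes tested, and the 64 rose by a median of 1.34-fold. Over genes of at least 5 CPM, the medians of the 19 autosomes lay between -0.22 and 0.01. As a share of all counts the members averaged 5.07% isosmotic and 5.64% at 6 h, and these libraries overlapped. The TMM factors were 1.07 and 1.06 isosmotic and 0.903 and 0.907 at 6 h, and lower factors raise normalized levels. All 32 members that rose with DMSO were among the 64 that rose with SFN, which was 100% of the first list and 50% of the second. The 2 comparisons used different libraries. The difference between them, tested as an interaction of SFN with 6 h of HS, had 0 members called by edgeR (2.37% of all genes were called higher and 1.66% lower), with 13 at an unadjusted p under 0.05 and 1 called by DESeq2. Left out singly, WT DMSO isosmotic replicate 1 gave 15 such calls, WT SFN isosmotic replicate 1 gave 41, and WT SFN isosmotic replicate 2 and WT SFN 6 h replicate 1 gave 1 each. The 6 h calls in SFN cells numbered 11 with all 16 libraries in the fit.

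The stalk of the large subunit, which recruits the elongation factors, rose in part. Rplp0, its base, measured 2851 and 3298 CPM in the isosmotic DMSO libraries, 2763 and 2848 CPM at 1 h and 3592 and 3755 CPM at 6 h. Both 6 h libraries lay above all 4 earlier ones (6 h against isosmotic, log2 difference 0.28, SE 0.067, adjusted p = 0.00118). Rplp1, one of its acidic partners, measured 1076 and 1245 CPM isosmotic, 1066 and 1089.8 CPM at 1 h and 1462 and 1549 CPM at 6 h. The groups again did not overlap between 6 h and isosmotic (log2 difference 0.40, SE 0.087, adjusted p = 7.95e-04). With SFN, Rplp2, the other acidic partner, measured 482 and 289 CPM isosmotic and 565 and 657 CPM at 6 h (log2 difference 0.70, SE 0.24, adjusted p = 0.0415); with DMSO its log2 difference was 0.36, which did not pass the test (adjusted p = 0.243).

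Rpl5 and Rpl11 sit with the smallest ribosomal RNA of the large subunit in the particle that can bind the p53 ligase Mdm2. Rpl5 measured 1083 and 1038 CPM at 1 h and 1253 and 1304 CPM at 6 h in DMSO cells, where it rose between these times (log2 difference 0.27, SE 0.066, adjusted p = 0.00150), and it also rose at 6 h in SFN cells (log2 difference 0.29, adjusted p = 8.26e-04). Rpl11 measured 587 and 429.8 CPM isosmotic and 594 and 672 CPM at 6 h with SFN, without overlap (log2 difference 0.35, SE 0.14, adjusted p = 0.0475), and 605 and 700.1 CPM and 649.7 and 700.2 CPM with DMSO (log2 difference 0.07, adjusted p = 0.678).

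Among the members with the largest changes at 6 h with DMSO was Rpl23a, which lines the mouth of the exit tunnel where the signal recognition particle docks. It measured 247 and 275 CPM isosmotic and 329 and 347 CPM at 6 h (log2 difference 0.40, SE 0.074, adjusted p = 8.45e-05). Rps12, of the small subunit, went from 575 and 729 CPM to 844 and 861 CPM (log2 difference 0.41, SE 0.11, adjusted p = 0.00836), and with SFN from 544 and 431 CPM to 784 and 819 CPM (log2 difference 0.75, SE 0.11, adjusted p = 1.12e-04). For both genes the 6 h libraries lay above the isosmotic ones without overlap. Rpl13a rose with DMSO by 0.38 on the log2 scale, Rpsa by 0.24, Rps4x by 0.26 and Rpl4 by 0.17. With SFN the largest rises included Rpl41, from 1275 and 656 CPM to 1576 and 1845 CPM (log2 difference 0.86, SE 0.30, adjusted p = 0.0451), and Rpl35a, from 185 and 118 CPM to 237 and 254 CPM (log2 difference 0.74, SE 0.20, adjusted p = 0.0163). Over 83 members the SFN difference at 6 h had a Spearman rank correlation of -0.60 with coding length. Its median was 0.54 over the 42 members of up to 453 coding bases and 0.37 over the 41 longer ones. Over 686 other genes as short it was 0.06, and the part of length was not tested here. Rpl24 rose with DMSO by 0.79 (adjusted p = 0.0210), but this was 0.23 (adjusted p = 0.509) with its copies added, an alternative chosen after the data were seen.

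A pair of paralogs moved in opposite directions. Rpl7l1, a relative of Rpl7 that is found on nucleolar precursors of the large subunit, was the member that fell at 6 h. It measured 179 and 187 CPM in isosmotic DMSO cells, 169.6 and 161 CPM at 1 h and 137 and 128 CPM at 6 h, and 183 and 175, 187 and 184 and 123 and 133 CPM at these times with SFN. All 4 libraries at 6 h lay below all 8 other WT libraries (6 h against isosmotic, log2 difference -0.44, SE 0.068, adjusted p = 9.76e-06 with DMSO and log2 difference -0.45, SE 0.068, adjusted p = 7.86e-06 with SFN). Rpl7 itself was not called at 6 h with DMSO (1791 and 2104 CPM and 2058 and 2203 CPM, log2 difference 0.15, adjusted p = 0.0526) and rose with SFN (1516 and 1614 CPM and 2109 and 2126 CPM, log2 difference 0.47, SE 0.066, adjusted p = 2.87e-06).

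Rpl22l1, the paralog whose amount the Rpl22 protein holds down, measured 61.8 and 73.4 CPM in isosmotic DMSO cells, 58.7 and 52.0 CPM at 1 h and 84.1 and 85.5 CPM at 6 h. With SFN it measured 48.5 and 47.5, 45.1 and 50.1 and 68.7 and 69.4 CPM. It was lowest at 1 h and highest at 6 h with DMSO, with no overlap between times, and the 6 h libraries were highest within SFN too. It fell at 1 h (log2 difference -0.27, SE 0.088, adjusted p = 0.0331), rose at 6 h against isosmotic (log2 difference 0.35, SE 0.088, adjusted p = 0.00167), and rose at 6 h with SFN (log2 difference 0.56, SE 0.089, adjusted p = 1.34e-05). Rpl22 rose at 6 h with SFN (log2 difference 0.38, SE 0.14, adjusted p = 0.0415), and its log2 difference with DMSO was 0.09 (adjusted p = 0.634). Rps27l, a paralog of Rps27 and a known p53 target, rose at 6 h with SFN by 0.30 (adjusted p = 0.00285), and its difference with DMSO was 0.03 (adjusted p = 0.785).

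**Figure D2:**
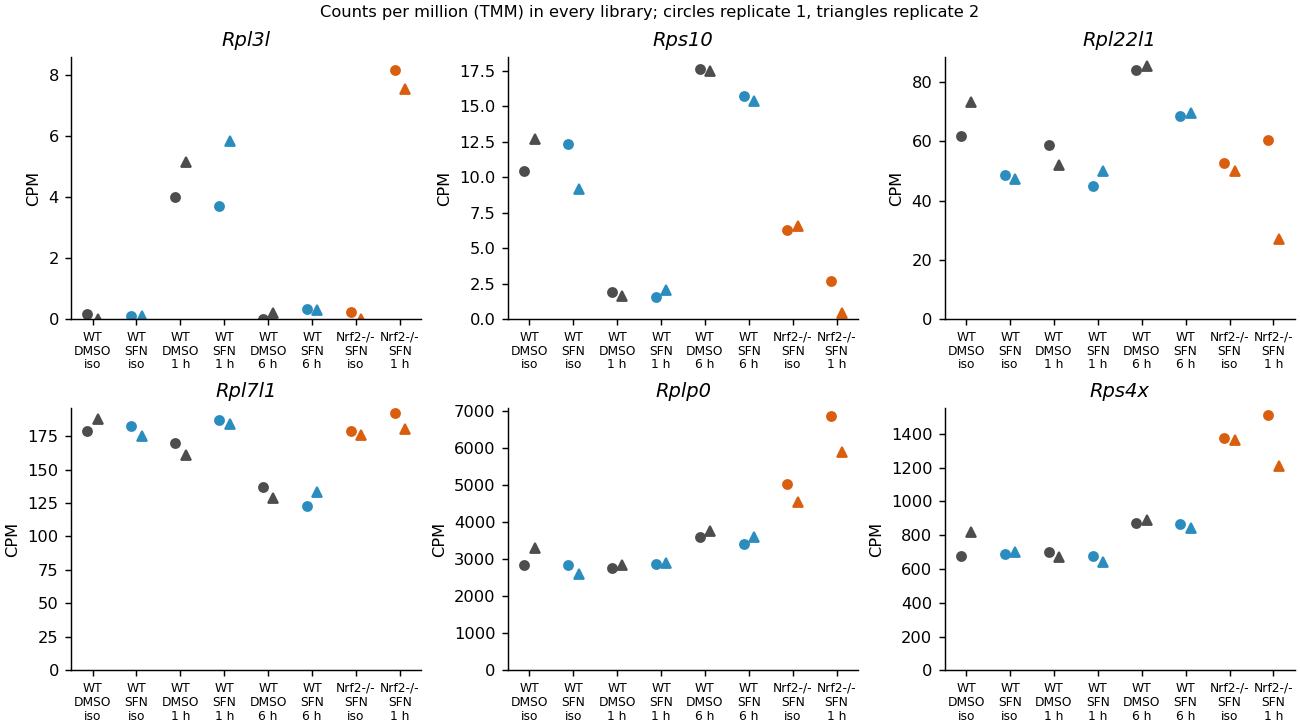
Level (CPM, y axis) of 6 members in each library of the 8 groups; circles and triangles are replicates 1 and 2. Rpl3l rises and Rps10 falls at 1 h, and Rpl7l1 is lowest at 6 h. In WT cells Rpl22l1 is highest at 6 h within each pretreatment, and Rplp0 and Rps4x are highest in Nrf2-/- cells.

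Other gene groups of the protein synthesis machinery were read from lists of known function. Beside each count stand the shares of all genes, 29.8% higher and 26.3% lower with DMSO and 31.8% and 26.1% with SFN. Of 77 tested mitochondrial ribosomal protein genes, which serve the separate ribosome inside mitochondria, 2 rose and 55 fell at 6 h with DMSO (median log2 difference -0.50), and 5 rose and 51 fell with SFN (median -0.40). Of 23 translation factors and other genes with TOP mRNAs, 13 rose and 1 fell with DMSO. They included Eif4b (log2 difference 0.84, adjusted p = 3.49e-11), a cofactor of the helicase that opens mRNA, and the elongation factors Eef2 (log2 difference 0.59, adjusted p = 4.21e-09) and Eef1a1 (log2 difference 0.50, adjusted p = 1.18e-07), while Eif3e fell (log2 difference -0.40, adjusted p = 4.43e-05). Of 72 ribosome assembly genes, 34 rose and 17 fell, among them the small subunit assembly factor Utp4 (log2 difference 0.99, adjusted p = 1.54e-11) and the rRNA methyltransferase Nop2 (log2 difference 0.71, adjusted p = 2.18e-09) on one side and Rpf2, which brings Rpl5 and Rpl11 to the precursor (log2 difference -1.16, adjusted p = 3.17e-10), on the other.

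Of 20 genes of RNA polymerase I, which makes ribosomal RNA, 6 rose and 7 fell at 6 h with DMSO, with the count that rose near the 29.8% of all genes. They were led by Taf1b, part of its promoter selectivity factor, which fell (log2 difference -1.80, adjusted p = 4.19e-09). Of 23 growth control genes, 15 rose and 4 fell. Ddit4, an inhibitor of mTORC1 that stress induces, rose (log2 difference 3.15, adjusted p = 8.00e-14), as did Myc, a driver of ribosome production (log2 difference 0.84, adjusted p = 3.87e-10), while the mTORC1 subunit Rptor fell (log2 difference -0.88, adjusted p = 8.80e-10). The cytosolic members and the TOP genes thus had far more calls higher than lower at 6 h, the mitochondrial ribosomal proteins had far more lower, and the other lists had calls in both directions.

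**Figure D3:**
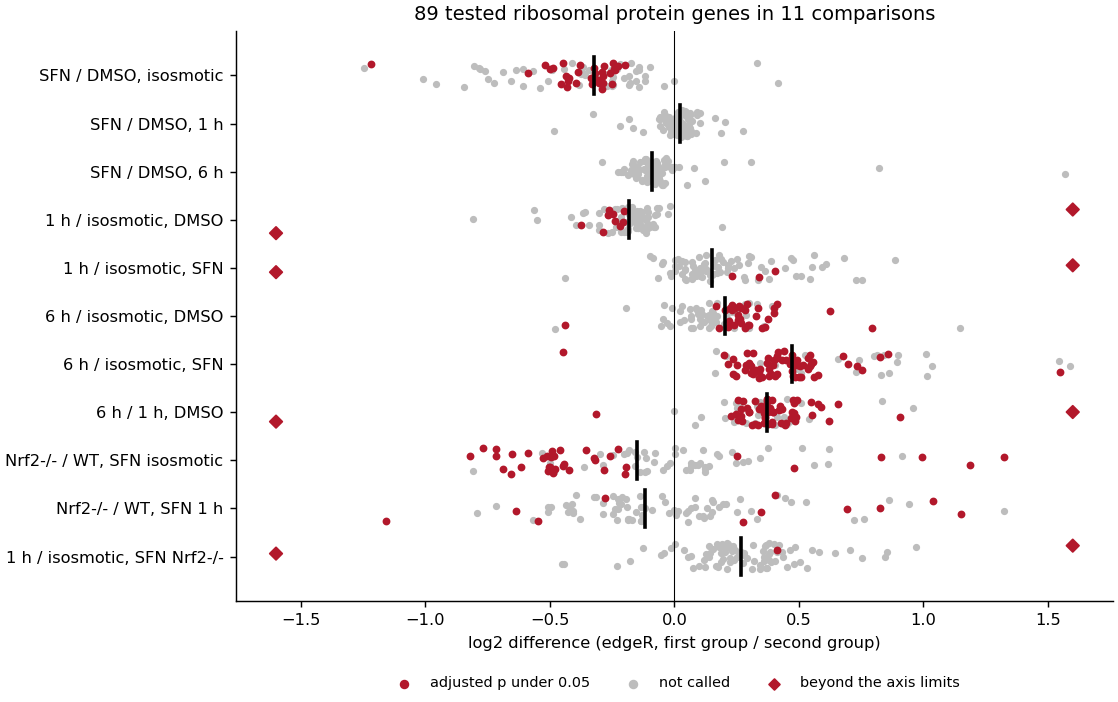
Log2 difference (x axis) of each of the 89 tested members in the 11 comparisons between groups (y axis); points are members, red where called at an adjusted p under 0.05 by edgeR and grey otherwise, and black bars are medians. The member medians lie above 0 in the 6 h comparisons and below 0 for SFN in isosmotic cells; diamonds mark members beyond the axis.

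HS for 1 h changed few members, and 2 of them changed much more than the others. With DMSO, 1 member rose and 10 fell (1.12% and 11.2%), against 14.4% of all genes called higher and 8.15% called lower. With SFN, 4 rose and 1 fell (4.49% and 1.12%), against 11.4% and 6.70% of all genes. The shares that rose were below those of all genes. With DMSO the calls numbered 39 without WT DMSO isosmotic replicate 1, 3 without replicate 2, and 6 and 3 without WT DMSO 1 h replicates 1 and 2. With SFN they numbered 46 without WT SFN isosmotic replicate 1 and 3 without any other library.

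Rpl3l, the paralog of Rpl3 that normally replaces it in heart and skeletal muscle, rose at 1 h in all 3 settings. It had 7 and 0 counts in isosmotic DMSO libraries, 177 and 195 counts at 1 h, and 0 and 7 counts at 6 h. With SFN it had 4 and 6 counts isosmotic, 142 and 234 at 1 h and 11 and 10 at 6 h. In Nrf2-/- SFN cells it had 8 and 0 counts isosmotic and 289 and 262 at 1 h. Every 1 h library lay above every other library, and the 6 h libraries, with at most 11 counts, were close to the isosmotic ones, with at most 8.

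The ratio of Rpl3l counts at 1 h to isosmotic, per total count, was 58.0 with DMSO (95% interval 27.9 to 145), 42.8 with SFN (23.0 to 89.99) and 67.0 in Nrf2-/- SFN cells (33.8 to 156). These intervals cover counting error only. In edgeR the log2 differences were 5.79 (SE 0.68, adjusted p = 1.07e-05), 5.44 (SE 0.65, adjusted p = 1.53e-05) and 6.11 (SE 0.81, adjusted p = 4.43e-04). The call held under every alternative that could be run for it. Even at 1 h the level was low, at 4.01 and 5.17 CPM with DMSO, where Rpl3 had 1206 and 1251 CPM. Rpl3l lies on chromosome 17 from 24727820 to 24736143 on the plus strand (GRCm38), and the nearest gene upstream on that strand is another member, Rps2, 5891 bases away.

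Rps10, a small subunit protein that quality control enzymes tag on stalled ribosomes, showed the reverse. It had 437 and 573 counts isosmotic, 84 and 62 at 1 h and 607 and 565 at 6 h with DMSO, and 460 and 493, 61 and 82 and 535 and 494 with SFN. In Nrf2-/- cells it had 221 and 244 counts isosmotic and 94 and 15 at 1 h. All 1 h libraries lay below all others. The fall at 1 h was -2.68 on the log2 scale with DMSO (SE 0.19, adjusted p = 1.13e-09), -2.52 with SFN (adjusted p = 5.08e-09) and -2.05 in Nrf2-/- cells (adjusted p = 0.0147).

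These counts were a small part of what can be assigned to Rps10. Between 92.99% and 99.0% of the summed counts of a group, with its 2 libraries added, lay in its near-identical copies, mainly Rps10-ps1 and Rps10-ps2. With the copies added, an alternative chosen after the data were seen, the 1 h difference was -0.28 with DMSO (adjusted p = 0.0122), -0.14 with SFN (adjusted p = 0.262) and 0.31 in Nrf2-/- cells (adjusted p = 0.509). The reads assigned to the Rps10 gene therefore fell at 1 h, while the summed counts of the family fell little with DMSO and were not called with SFN or in Nrf2-/- cells.

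The other members that fell at 1 h with DMSO changed by small amounts. Rpl10a fell from 666 and 768 CPM to 592 and 586 CPM (log2 difference -0.26, SE 0.064, adjusted p = 0.00559), and Rps27l from 112 and 119 CPM to 96.4 and 95.4 CPM (log2 difference -0.25, SE 0.08, adjusted p = 0.0294). Rpl5, Rpl9 and Rps24 fell by 0.21, 0.29 and 0.37 on the log2 scale. With SFN, the other members that rose were Rps26, which lies at the mRNA exit of the small subunit, from 834 and 617 CPM to 948 and 939.6 CPM (log2 difference 0.41, SE 0.12, adjusted p = 0.0433), Rps14 (log2 difference 0.34, SE 0.076, adjusted p = 0.00292) and Rps27l (log2 difference 0.23, SE 0.08, adjusted p = 0.0497). For each of these the 2 groups did not overlap.

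In isosmotic WT cells, SFN went with lower ribosomal protein transcripts. Of the 89 tested members, 0 rose and 33 fell (37.1%), against 7.00% of all genes called higher and 7.67% called lower, and the median log2 difference was -0.32 over members and 0 over all genes. By DESeq2, 0 rose and 43 fell, without a share of all genes to set beside them. The 33 fell by a median of 1.25-fold, 16 of them from the large subunit and 17 from the small. Rps27a, which is made as a fusion with ubiquitin, measured 771 and 925 CPM with DMSO and 569 and 646 CPM with SFN (log2 difference -0.49, SE 0.092, adjusted p = 0.00180). Rpl31 measured 547 and 634 CPM and 464 and 326 CPM (log2 difference -0.59, SE 0.15, adjusted p = 0.0277), and Rpl22l1 fell too (log2 difference -0.50, SE 0.088, adjusted p = 4.99e-04). For each of these 3 genes both SFN libraries lay below both DMSO libraries.

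The size of this fall rested on 2 libraries. In SFN replicate 2 members were lower than in replicate 1 by a median of -0.27 on the log2 scale, by -0.48 over the 42 members with coding sequences up to the median of 453 bases and by -0.09 over the 41 longer ones. The 686 tested genes outside the list with coding sequences as short differed by -0.15 between the same libraries. In WT DMSO isosmotic cells replicate 2 was higher than replicate 1 by 0.23 at both lengths, and the 686 other short genes differed by 0.16, against 0.004 over all other genes. Without SFN replicate 2, 15 members fell, and without DMSO replicate 2, 6 fell; without SFN replicate 1 and DMSO replicate 1 the counts were 72 and 51. With all 16 libraries in the fit, 0 members were called, and with the length trend removed, 15.

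**Figure D4:**
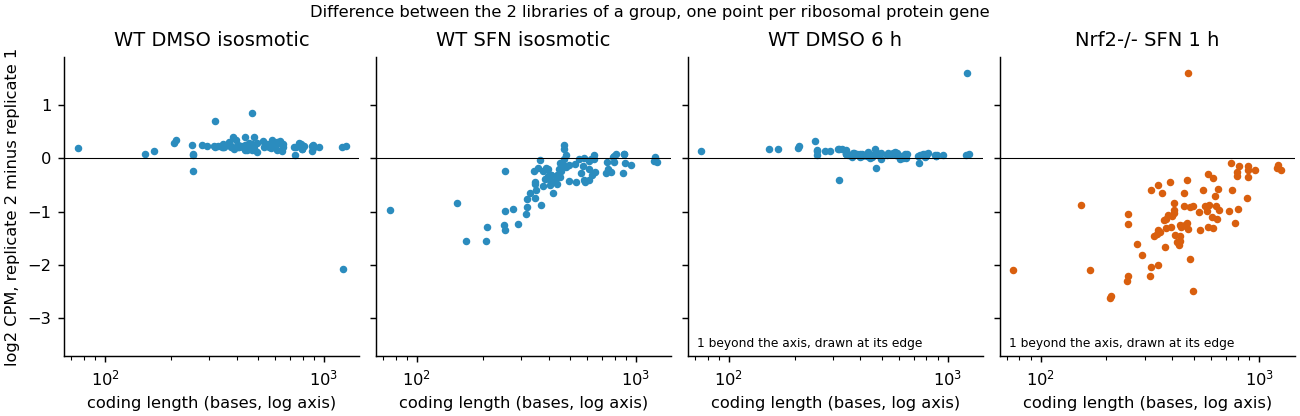
Log2 CPM of replicate 2 minus replicate 1 (y axis) of each member against the length of its coding sequence in bases (log x axis) in 4 groups; points are members, and 1 point each in WT DMSO 6 h and Nrf2-/- SFN 1 h lies beyond the axis and is drawn at its edge. In WT SFN isosmotic cells and in Nrf2-/- SFN cells at 1 h the shorter members lie lowest, whereas in WT DMSO isosmotic cells the difference is 0.23 at both lengths.

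Under HS the effect of SFN in WT cells was not detected. At 1 h, 0 members were called by edgeR and 0 by DESeq2 (4 at an unadjusted p under 0.05), with a median log2 difference of 0.02, and 0.410% of all genes were called higher and 0.128% lower. At 6 h, 0 were called by either tool (4 at an unadjusted p under 0.05), with a median of -0.09, and 0.200% of all genes were called higher and 0.0564% lower. The change from isosmotic to 1 h was tested as an interaction with SFN, in which 3 members were called, all positive (3.37% of members against 2.16% of all genes called higher and 0.989% lower), with 43 at an unadjusted p under 0.05. The 3 called were Rps14, which lies on the platform of the small subunit near the decoding site, Rps27l and Rpl9. No share of all genes stands beside the counts at an unadjusted p, by DESeq2, under another fit, filter or length trend, or with a library left out. Such counts therefore do not set the members apart from other genes.

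Rps14 measured 865 and 1050.3 CPM isosmotic and 856 and 821 CPM at 1 h with DMSO, and 739 and 696 and 878 and 904 CPM with SFN. Its 1 h libraries lay below the isosmotic ones with DMSO and above them with SFN, and the isosmotic SFN libraries were the lowest of the 8 (interaction, log2 difference 0.51, SE 0.11, adjusted p = 0.00741). Rps27l measured 112 and 119 and 96.4 and 95.4 CPM with DMSO and 93.3 and 78.9 and 95.5 and 103 CPM with SFN (log2 difference 0.48, SE 0.11, adjusted p = 0.0191). Rpl9 measured 704 and 808 and 615 and 606 CPM with DMSO and 631 and 575 and 644 and 633 CPM with SFN (log2 difference 0.40, SE 0.10, adjusted p = 0.0320). The calls numbered between 0 and 54 as single libraries were left out: 30 without WT DMSO isosmotic replicate 1, 54 without WT SFN isosmotic replicate 1, 1 without WT DMSO isosmotic replicate 2 or WT DMSO 1 h replicate 1, and 0 without WT DMSO 1 h replicate 2 or WT SFN 1 h replicate 2. DESeq2 called 8.

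Compared with WT SFN cells, isosmotic Nrf2-/- SFN cells had a few members higher and more lower, and at 1 h few members differed in either direction. In isosmotic cells, 6 were higher and 31 lower (6.74% and 34.8%), against 21.6% and 24.2% of all genes. The 6 that were higher differed by a median of 1.89-fold and the 31 that were lower by a median of 1.40-fold. At 1 h, 7 were higher and 4 lower (7.87% and 4.49%), against 15.3% and 16.2% of all genes. Of the members called higher, Rpl10, Rpl5, Rplp0 and Rps4x were shared, which was 66.7% of the isosmotic list and 57.1% of the 1 h list, and Rpl29, Rpl34 and Rpl9 were shared among those called lower (9.68% and 75.0%).

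Rplp0, the base of the stalk, measured 2841 and 2599 CPM in WT and 5026 and 4542 CPM in Nrf2-/- isosmotic cells, and 2858 and 2879.5 and 6851 and 5889.9 CPM at 1 h. All 4 Nrf2-/- libraries lay above every WT library of the same pretreatment and time, and the 1 h pair was highest (isosmotic log2 difference 0.83, SE 0.074, adjusted p = 5.96e-10, and 1 h log2 difference 1.15, SE 0.11, adjusted p = 1.20e-06). Its stalk partner Rplp1 went the other way, with 1062 and 902 CPM in WT and 730.1 and 785 CPM in Nrf2-/- cells (log2 difference -0.36, SE 0.084, adjusted p = 9.61e-04). Rps4x, an X-linked protein of the small subunit, measured 689.5 and 699 CPM in WT and 1372 and 1365 CPM in Nrf2-/- isosmotic cells, and 677 and 643 and 1508 and 1208 CPM at 1 h. The groups did not overlap at either time (isosmotic log2 difference 1.00, SE 0.076, adjusted p = 2.56e-11, and 1 h log2 difference 1.04, SE 0.11, adjusted p = 6.87e-06).

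Rpl10, which takes part in joining the subunits, measured 557 and 580.0 CPM in WT and 772 and 794 CPM in Nrf2-/- isosmotic cells (log2 difference 0.48, SE 0.068, adjusted p = 1.71e-06). Rpl39, in the wall of the exit tunnel, measured 232 and 129 and 350.1 and 462 CPM (log2 difference 1.19, SE 0.25, adjusted p = 0.00588). Rpl36a measured 163 and 86.8 and 182 and 195 CPM, without overlap, but was not called (log2 difference 0.62, adjusted p = 0.0861). These 3 and Rps4x are the 4 members on the X chromosome, and their median log2 difference was 0.81 isosmotic. The 567 tested genes of the X chromosome had a median of 0.80, with 323 called higher (57.0%) and 47 lower, close to the median of these members. Over genes of at least 5 CPM the median was 0.93 for the X chromosome and between -0.27 and 0.38 for the 19 autosomes. The 85 autosomal members had 3 called higher and 31 lower, with a median of -0.16. Whether the X-linked difference goes with the loss of Nrf2 or with the line cannot be told apart in 1 line.

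**Figure D5:**
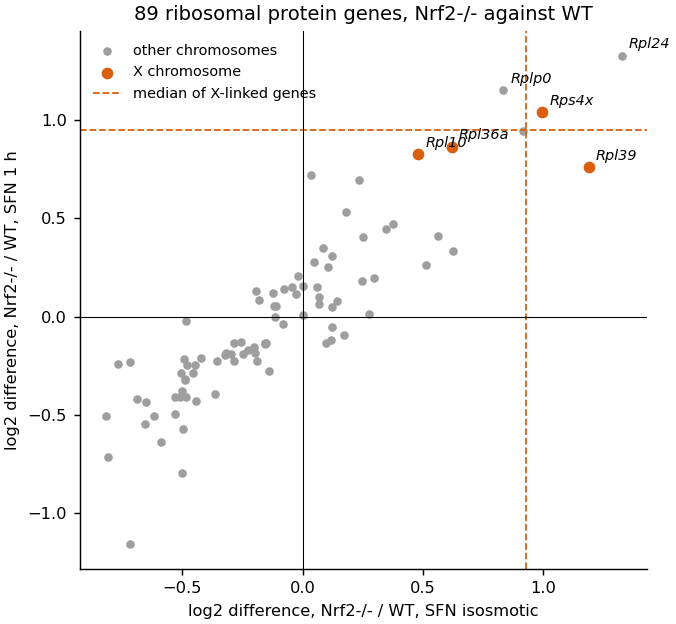
Log2 difference between Nrf2-/- SFN and WT SFN cells at 1 h (y axis) against isosmotic cells (x axis); points are members, X-linked members are orange, and dashed lines mark the medians of X-linked genes of at least 5 CPM, 0.93 isosmotic and 0.95 at 1 h. Rplp0, an autosomal member, lies beside the X-linked Rps4x.

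Among the members that were lower in Nrf2-/- isosmotic cells, Rpl15 measured 729 and 638 CPM in WT and 414 and 352 CPM in Nrf2-/- cells (log2 difference -0.82, SE 0.082, adjusted p = 4.93e-09). Rpl7a measured 672 and 639 and 413 and 392 CPM (log2 difference -0.69, SE 0.071, adjusted p = 8.89e-09), and Rpl29 245 and 256 and 156 and 159 CPM (log2 difference -0.66, SE 0.078, adjusted p = 1.01e-07). The Nrf2-/- libraries of all 3 lay below those of WT. Rpl11 was lower as well (log2 difference -0.51, SE 0.11, adjusted p = 0.00101), whereas Rpl5, its partner, was higher (log2 difference 0.25, SE 0.071, adjusted p = 0.00499). Rpl26 and Rpl34 were called lower (log2 differences -0.77 and -0.72), but most of their summed counts lay in copies, and with these added the values were 0.06 (adjusted p = 0.543) and -0.43 (adjusted p = 1.75e-04). Rpl24 was called higher (1.32), which was 0.58 (adjusted p = 0.0849) with copies added.

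The 37 isosmotic calls became 9 with all 16 libraries in the fit. Without WT SFN isosmotic replicate 1 they were 22 higher and 25 lower, against 6 and 47 without replicate 2, and with the length trend removed 26 were higher and 23 lower. Of 77 mitochondrial ribosomal protein genes, 8 were higher and 44 lower (median log2 difference -0.35), of the 23 TOP genes 7 were higher and 7 lower, and of 72 assembly genes 21 were higher and 28 lower. Beside the 21.6% and 24.2% of all genes, the mitochondrial list had the larger share lower, and the counts of the other lists were nearer to these shares. Kidney epithelial markers differed in both directions in the 4 Nrf2-/- libraries. Among the lower ones, Cdh16 had 488 to 900 counts against 6570 to 14870 in WT, and Pax2 819 to 977 against 4993 to 39220. Ehf had 0 to 4 against 288 to 2599, and Lrp2 2 to 16 against 239 to 451. Among the higher ones, Cdh1 had 14955 to 16316 against 5155 to 14482, and Tfcp2l1 1709 to 2818 against 820 to 1464. The collecting duct markers summed to 2135 to 2588 CPM in Nrf2-/- libraries and 2315 to 2896 CPM in WT SFN libraries at the same times, and the markers of other cell types to 5.92 to 11.5 CPM against 13.8 to 17.7 CPM. Their part in the genotype differences was not tested.

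The 1 h comparison in Nrf2-/- cells was the least precise. Members in Nrf2-/- SFN 1 h replicate 2 were lower than in replicate 1 by a median of -1.06 on the log2 scale, -1.32 over the shorter and -0.88 over the longer members, and the 686 other genes as short differed by -0.73. Against WT at 1 h, 6 members were higher and 51 lower without replicate 1, and 31 higher and 2 lower without replicate 2, and 2 were called without either WT SFN 1 h library. Rplp0 and Rps4x were higher with either library of this pair (log2 differences 1.05 and 1.26 for Rplp0, 0.89 and 1.19 for Rps4x), whereas Rpl10 was 0.17 (adjusted p = 0.0950) and 1.28.

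Within Nrf2-/- SFN cells, 2 members rose at 1 h and 1 fell (2.25% and 1.12%), against 4.36% and 2.81% of all genes. These were Rpl3l and Rps10, described above, and Rplp0 (log2 difference 0.41, SE 0.11, adjusted p = 0.0292). The calls numbered 34 and 66 without 1 h replicates 1 and 2, mostly lower in the first case (32) and higher in the second (64), and 1 without either isosmotic library. The interaction of genotype with 1 h of HS had 0 members called by edgeR or DESeq2, with 1 at an unadjusted p under 0.05 and 0.0615% of all genes called in each direction. It had 28 calls, all lower, without 1 h replicate 1, and 39, of which 38 higher, without replicate 2.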

How the data were processed

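RNA-seq counts per gene were deposited for 16 libraries of mIMCD3 cells, grouped by the sample labels into 8 groups of 2; 1 label called the source primary cells and all others mIMCD3, which was used. The study's methods name Hisat2, SAMtools and featureCounts on mm10 to make these raw counts, whereas the submitters' processing notes list Bowtie2 in place of Hisat2; the sources used here do not give versions, the annotation, the strand setting or how shared reads were handled. Of values between 1 and 10, 58.0% to 68.5% were even, so counted reads are perhaps not all independent fragments. The few lines without a gene name were left out. Totals were 34484296 to 50774875.

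Genes were filtered with filterByExpr, leaving 19509, and tested with edgeR 4.0.16 (R 4.3.3; TMM normalization, robust quasi-likelihood, two-sided), with Benjamini-Hochberg adjustment over all of them and a call at an adjusted p under 0.05. The fit held the 12 WT libraries, with the 2 isosmotic Nrf2-/- libraries added (14) for the isosmotic genotype comparison and all 16 for comparisons with Nrf2-/- at 1 h. With 2 libraries a group an exact permutation test cannot go below 0.333. Levels are CPM (TMM) without a pseudocount, and log2 CPM used a prior count of 2. There were 11 comparisons between groups and 3 interactions. DESeq2 1.42.0, RLE size factors, TMM without ribosomal genes, other filters and fits, a replicate block, a transcript length trend, and leaving out each library were alternatives, and copies summed were added after the data were seen. The scripts were tested on simulated data.

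The members and gene lists were chosen with earlier results of these data known. The text names members by role (stalk, Rpl5, Rpl11, Rps27a, Rpsa, exit tunnel, paralogs and their parents), members called in a comparison with the largest differences, no overlap and a mean of at least 50 counts (up to 6 a direction), interaction calls, levels per length, and list genes of lowest p. Positions are from GENCODE M21 (GRCm38, also mm10) and promoters from RefSeq (GRCm38.p6), matched by symbol.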

Additional observations from a re-analysis of the deposited data

Results flagged for a closer look

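The effect of 1 h of HS on 3 members differed between SFN-pretreated and DMSO-treated WT cells by a test of the difference itself, the interaction term in edgeR. The log2 interaction was 0.51 for Rps14 (SE 0.11, adjusted p = 0.00741), 0.48 for Rps27l (SE 0.11, adjusted p = 0.0191) and 0.40 for Rpl9 (SE 0.10, adjusted p = 0.0320), each positive. These were 3 of 89 members (3.37%), near the 2.16% of all genes called higher in this interaction. The calls fell to 0 with all 16 libraries in the fit and lay between 0 and 54 as single libraries were left out, with 0 without WT DMSO 1 h replicate 2 or WT SFN 1 h replicate 2. For all 3 the 1 h libraries lay below the isosmotic ones with DMSO. Across the 83 members with a coding sequence, the interaction had a Spearman rank correlation of -0.80 with coding length, as a description, and its median was 0.48 over the 42 shorter and 0.23 over the 41 longer members, beside 0.24 over 686 other genes as short. The part of length in these 3 calls was not tested beyond the alternative without the length trend, under which Rps14 kept its call and Rps27l and Rpl9 lost theirs.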

How the results depend on the processing

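Members called, in the order SFN isosmotic, SFN 1 h, SFN 6 h, 1 h DMSO, 6 h DMSO, 6 h against 1 h, 1 h SFN, 6 h SFN, Nrf2-/- isosmotic, Nrf2-/- 1 h and 1 h in Nrf2-/-, numbered 33, 0, 0, 11, 33, 61, 5, 65, 37, 11 and 3, and in the interactions SFN with 1 h, SFN with 6 h and genotype with 1 h 3, 0 and 0. Asking for at least 1.5-fold gave 2 (SFN isosmotic, 1 h DMSO, 6 h DMSO, 1 h SFN), 6 (6 h against 1 h, Nrf2-/- 1 h), 7 (6 h SFN), 13 (Nrf2-/- isosmotic) and 0 (SFN with 1 h). All 16 libraries in the fit gave 0, 2, 1, 14, 2, 11, 9 and 0 for SFN isosmotic, 1 h DMSO, 6 h DMSO, 6 h against 1 h, 1 h SFN, 6 h SFN, Nrf2-/- isosmotic and SFN with 1 h. Only the groups compared gave 13, 6, 2, 21, 3, 2, 1 and 1 for SFN isosmotic, SFN 1 h, SFN 6 h, 1 h DMSO, 1 h SFN, Nrf2-/- 1 h, 1 h in Nrf2-/- and SFN with 1 h. No filter gave 51, 1, 33, 11, 33, 34, 21 and 9 for SFN isosmotic, SFN 6 h, 1 h DMSO, 1 h SFN, Nrf2-/- 1 h, 1 h in Nrf2-/-, SFN with 1 h and SFN with 6 h. At least 10 counts in every library gave 4 (1 h DMSO) and 3 (1 h SFN). Without the length trend there were 15, 4, 60, 21, 26 and 17 for SFN isosmotic, 1 h DMSO, 6 h DMSO, 1 h SFN, Nrf2-/- 1 h and 1 h in Nrf2-/-. DESeq2 gave 7 (1 h in Nrf2-/-), 8 (SFN with 1 h) and 1 (SFN with 6 h), and TMM without ribosomal and TOP genes gave 3 (1 h SFN). No shares of all genes stand beside these counts, and the cause was not tested.

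Leaving out 1 library gave 6 to 72 calls (SFN isosmotic), 3 to 39 (1 h DMSO), 12 to 46 (6 h DMSO), 46 to 55 (6 h against 1 h), 3 to 46 (1 h SFN), 47 to 84 (6 h SFN), 30 to 53 (Nrf2-/- isosmotic), 2 to 57 (Nrf2-/- 1 h), 1 to 66 (1 h in Nrf2-/-), 0 to 54 (SFN with 1 h), 0 to 41 (SFN with 6 h) and 0 to 39 (genotype with 1 h). Of 452 such refits of named members, 341 kept direction and call, 111 lost the call and 0 reversed; the lone library left in a group was assumed to vary like those of the other groups.

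Same-numbered libraries of different groups deviated together in few cases (28 group pairs, r between -0.22 and 0.36, 3 above 0.1). The numbers were therefore treated as names only. With 2 libraries a group, these correlations cannot show that no batch was shared. With the replicate number as a block, 3 members were called (1 h SFN) and 2 (SFN with 6 h), and 12 of 110 named results lost their call and 98 kept it.

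With copies summed, 2 results reversed: Rps10 at 1 h in Nrf2-/- cells was 0.31 and Rpl26 in Nrf2-/- isosmotic cells was 0.064, neither called, and 10 of 110 lost their call. Member shares then were 5.95% and 5.89% (DMSO and SFN, 1 h), 6.58% and 6.11% (6 h) and 5.01% (Nrf2-/- isosmotic). Direction of the member median turned under some alternatives for Nrf2-/- isosmotic (-0.25 to 0.05), Nrf2-/- 1 h (-0.73 to 0.32), 1 h in Nrf2-/- (-0.37 to 0.68), 1 h DMSO (-0.29 to 0.002), SFN 1 h (-0.003 to 0.04) and genotype with 1 h (-0.49 to 0.50).

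With 2 libraries a group, small changes of single members are the limit. Counting error was larger for members of low counts, among them Rpl3l, Rps10, Rpl24 (7 to 262 counts), Rpl36al (22 to 124), Rpl32l (7 to 98), Rps23rg1 (4 to 20), Rps3a3 (57 to 164) and Rps3a2 (105 to 236).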

Other observations

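Among the 4620 genes outside the list with a mean of at least 50 CPM, those whose group means of log2 CPM followed the mean of the members most closely over the 8 groups were Krt19 (Pearson's r 0.988), an epithelial keratin, Dnajb6 (0.988), a chaperone, Tmsb10 (0.985), which binds actin monomers, Fbl (0.985), the rRNA methyltransferase of the nucleolus, and Npc2 (0.983), a lysosomal cholesterol carrier. These are the highest of many values and share libraries and depth with the members.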
